A study of Mus musculus with 6 samples.

Results

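The 9 core genes of the Hedgehog pathway, Shh, Ihh, Dhh, Ptch1, Smo, Gli1, Gli2, Gli3 and Sufu, were examined for retained nucleosomes in mouse sperm. They were chosen by name, and all 9 were found among the 21887 protein-coding genes of the annotation. The groups were 2 libraries from mice carrying the K49A substitution in protamine 1, in which alanine replaces a lysine, and 4 libraries from wild-type (WT) C57BL6 mice. All sperm came from the epididymis and vas deferens and were digested with micrococcal nuclease (MNase), with 5 units and then 15 units. The sources used here do not give the strain background of the mutant, the ages of the animals or how many animals stand behind a library. P-values therefore describe the spread between these libraries, which may be technical.

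MNase cuts exposed DNA and spares DNA wrapped around histones. In sperm most histones have been replaced by protamines, and nucleosome-sized DNA marks where histones stayed. The data are 1 list of called peaks per library in mm10 coordinates, with 700 and 1017 peaks in K49A 1 and 2 and between 11313 and 27903 in the WT lists. Read counts were not part of the files, so depth is unknown. A called peak pools many sperm, so it does not give the share of sperm that carried a nucleosome at that place. Peak lists hold no expression, so the labelled cell type could not be checked against expressed markers. The sperm chromatin genes Prm1, Prm2, Tnp1 and Tnp2 had no peak at an end or in the body in any of the 6 lists.

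Hedgehog ligands are secreted signals that pattern the limb, neural tube, skeleton and gonad. Without ligand, the receptor Ptch1 holds the membrane protein Smo inactive. Ligand binding frees Smo, and the signal passes through the primary cilium to the Gli transcription factors, which Sufu restrains. In the testis, Dhh is the ligand made by Sertoli cells.

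RefSeq promoter sequences (GRCm38.p6, the assembly named by mm10, from 250 bases before the annotated start to 50 after it) were matched for 7 of the 9 genes. Those of 5 genes are printed 5′ to 3′ on the gene's strand with each CpG in capitals, because they span the range from a promoter covered by a peak in all WT lists to one covered in 1. They lie at chr13:15463473-15463772 (Gli3, plus strand), chr1:74951623-74951922 (Ihh, minus), chr6:29735247-29735546 (Smo, plus), chr13:63565686-63565985 (Ptch1, minus) and chr15:98898491-98898790 (Dhh, minus).
Gli3: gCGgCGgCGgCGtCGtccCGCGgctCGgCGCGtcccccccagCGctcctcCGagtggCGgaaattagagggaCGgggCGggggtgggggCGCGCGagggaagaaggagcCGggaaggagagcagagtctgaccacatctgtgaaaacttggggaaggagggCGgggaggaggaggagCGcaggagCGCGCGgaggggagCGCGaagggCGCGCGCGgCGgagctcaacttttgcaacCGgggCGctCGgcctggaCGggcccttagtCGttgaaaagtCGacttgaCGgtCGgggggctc
Ihh: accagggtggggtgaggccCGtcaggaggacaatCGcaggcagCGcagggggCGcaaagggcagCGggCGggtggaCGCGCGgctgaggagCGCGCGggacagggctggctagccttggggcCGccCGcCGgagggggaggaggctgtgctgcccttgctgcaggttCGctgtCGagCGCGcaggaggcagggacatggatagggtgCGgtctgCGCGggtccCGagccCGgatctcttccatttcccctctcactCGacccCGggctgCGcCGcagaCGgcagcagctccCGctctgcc
Smo: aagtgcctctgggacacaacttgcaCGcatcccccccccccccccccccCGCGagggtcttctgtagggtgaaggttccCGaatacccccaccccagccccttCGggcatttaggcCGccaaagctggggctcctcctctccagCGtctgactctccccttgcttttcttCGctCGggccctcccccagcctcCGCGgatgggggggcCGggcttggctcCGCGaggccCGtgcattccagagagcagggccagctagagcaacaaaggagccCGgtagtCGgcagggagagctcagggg
Ptch1: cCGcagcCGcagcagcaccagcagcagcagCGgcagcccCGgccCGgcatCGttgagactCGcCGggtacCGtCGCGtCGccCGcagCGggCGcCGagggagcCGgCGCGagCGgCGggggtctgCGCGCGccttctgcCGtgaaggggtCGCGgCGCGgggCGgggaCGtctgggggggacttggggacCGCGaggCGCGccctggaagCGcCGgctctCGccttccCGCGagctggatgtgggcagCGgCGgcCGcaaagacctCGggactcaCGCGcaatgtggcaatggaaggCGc
Dhh: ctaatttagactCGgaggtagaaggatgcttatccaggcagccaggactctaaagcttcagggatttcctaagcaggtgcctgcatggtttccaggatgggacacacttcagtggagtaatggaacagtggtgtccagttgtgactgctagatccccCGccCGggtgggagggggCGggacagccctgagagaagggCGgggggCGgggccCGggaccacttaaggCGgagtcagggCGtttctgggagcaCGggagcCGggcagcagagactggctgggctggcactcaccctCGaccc

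The printed windows held 39 CpG in Gli3, 30 in Ihh, 17 in Smo, 47 in Ptch1 and 12 in Dhh. No K49A peak lay over any of the 7 promoter windows. Over WT lists, Gli3 and Ihh were covered in all 4, Smo in 3, Ptch1 in 2 and Dhh in 1. The other matched genes, Gli2 with 28 CpG and Sufu with 12, were each covered in 2 WT lists. Of all promoters with an entry, 1 per gene, 0.0972 and 0.0686% had a peak over the window in K49A 1 and 2, against 18.4, 30.3, 33.9 and 38.3% in WT 1 to 4. A peak in all 4 WT lists and no K49A list covered 10.9% of these 17492 promoters.

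CpG content and WT peaks went together across all promoters. A peak was present in all 4 WT lists at 39.3% of promoters with 30 or more CpG, at 16.3% of those with 20 to 29, at 6.54% of those with 10 to 19 and at 0.176% of those with 0 to 4. Among the Hedgehog genes the match was loose. Ptch1 had more CpG than 98.2% of promoters and was covered in 2 WT lists, whereas Smo, with more than 56.9% of promoters, was covered in 3. The median promoter held 13 CpG. The Ptch1 window lies inside the annotated gene, whose annotated start end had a peak in all 4 WT lists. The Smo window ended at 29735546, and the WT 1 peak began just past it, at 29735551. The comparison across promoters is a description, since neighbouring promoters share peaks and all come from the same 4 libraries.

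**Figure D1:**
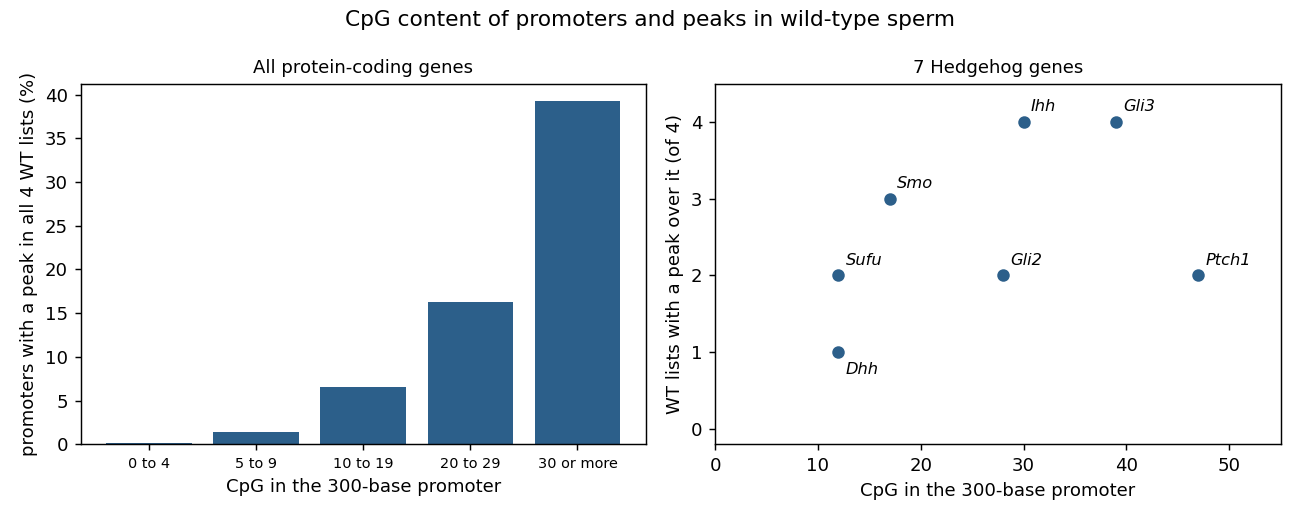
Bars give the percentage of promoters of all protein-coding genes with a peak in all 4 WT lists, by number of CpG in the 300-base window. Points give, for 7 Hedgehog genes, the CpG number and the number of WT lists with a peak over that window: Gli3 and Ihh were covered in all 4, and Ptch1, with 47 CpG, in 2.

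The Hedgehog genes held 1 called peak in each K49A library, against 9, 18, 18 and 15 in WT 1 to 4. Both K49A peaks were the same one, inside Smo. In the counts below, a peak was at a gene end if it overlapped the 1 kb on either side of an annotated end, and in the gene body if its midpoint lay between the ends. Folds are the authors' enrichment of a peak over its own library's background. They rank peaks inside 1 list and no comparison of folds was made across genotypes.

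**Figure D2:**
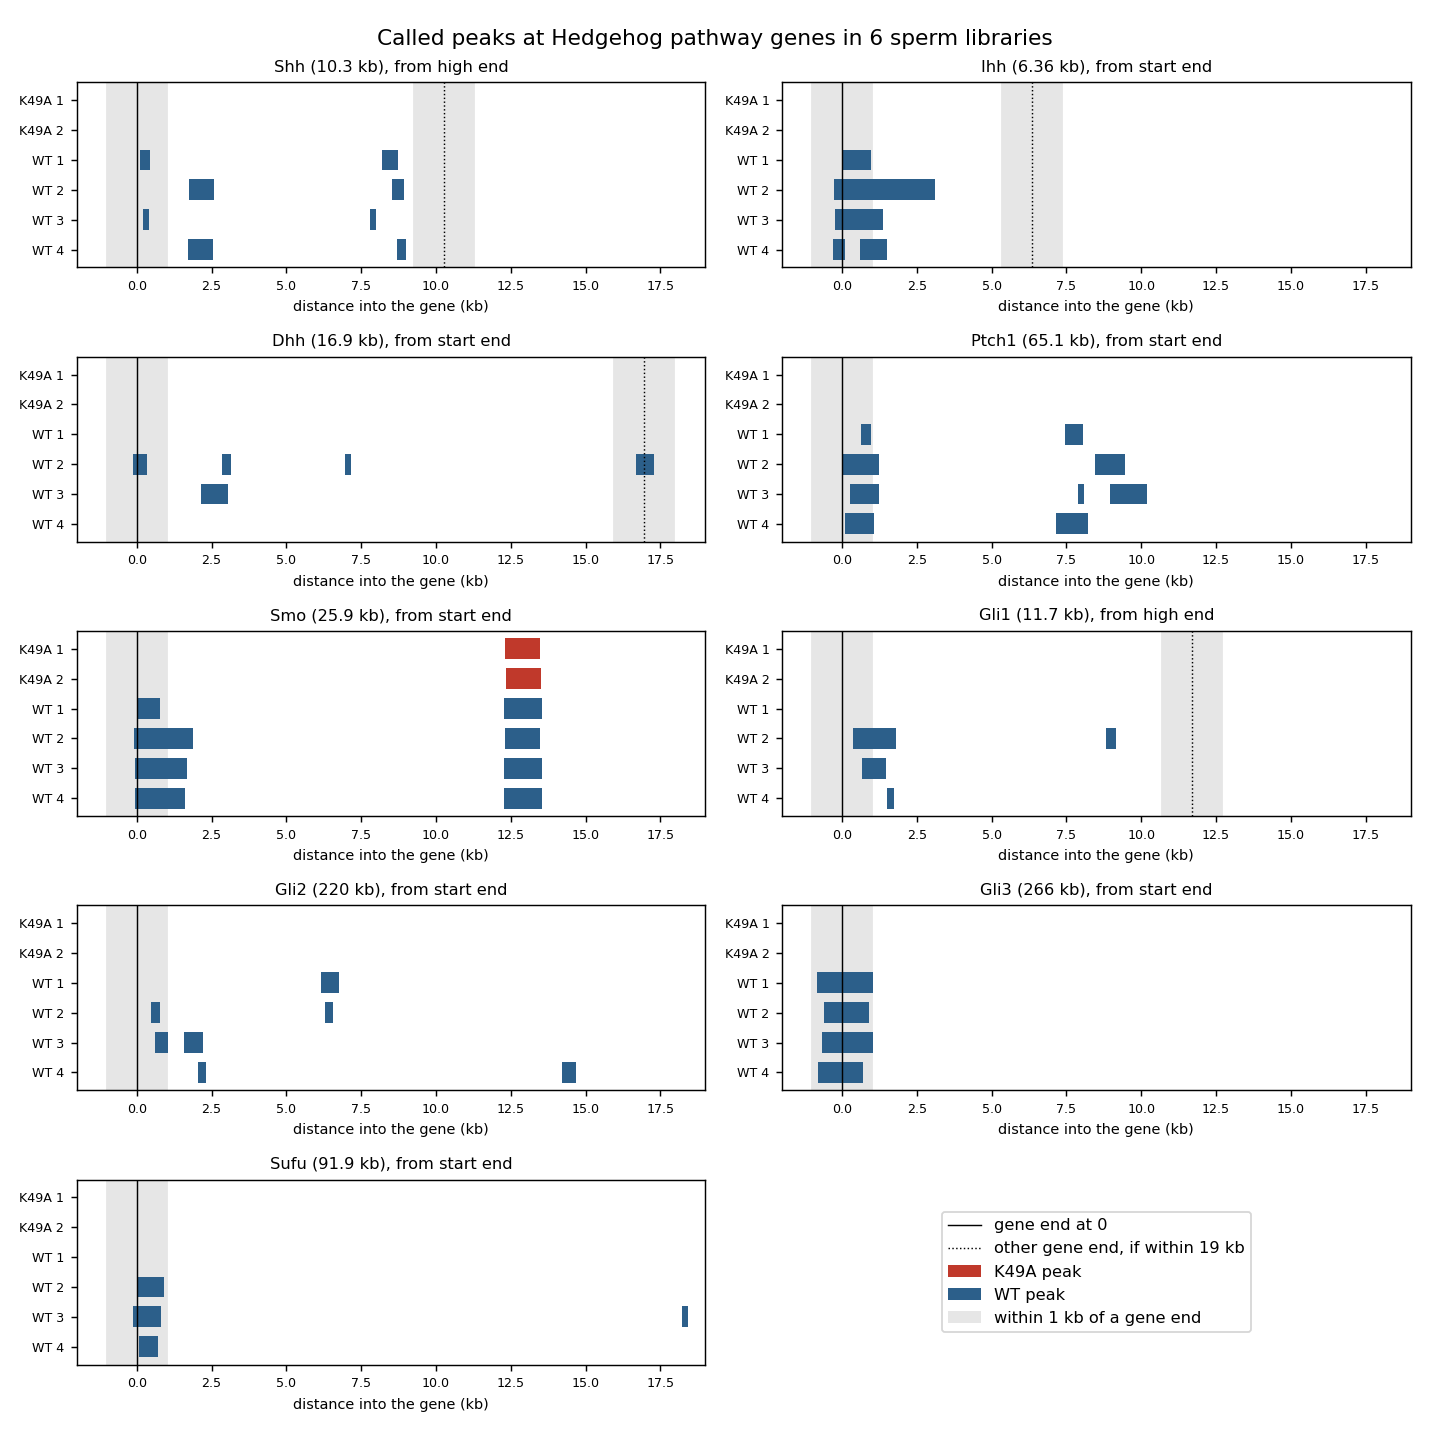
Each bar is a called peak, drawn by its distance in kb from the annotated start end of the gene (for Shh and Gli1 from the high-coordinate end), 1 row per library with K49A (red) above WT (blue), and grey marks the 1 kb on either side of a gene end. Peaks farther into Gli2, Gli3 and Sufu lie outside the plotted range. Gli3, Smo, Ihh and Ptch1 had a peak at the annotated start end in all 4 WT lists. The peak inside Smo is the one present in all 6 lists.

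Among the ligands, Ihh was the most consistently marked in WT sperm. Ihh drives growth of cartilage and bone, and its gene lies on chromosome 1 from 74945315 to 74951672. No peak was called there in K49A 1 or 2, and every WT list had a peak at the start end. In WT 1 it spanned 74950712 to 74951634, with a fold of 3.07. The WT 2 peak was the widest at 3352 bp and ran from 74948582 to 74951933. In WT 3 the peak was 1616 bp wide, and in WT 4 the same stretch was called as separate peaks of 927 and 391 bp. The best peak of each list had a mean fold of 2.60 ± 0.320 (SD, n = 4 WT) and ranked between the 55.5th and 76.5th percentile of its list by −log10 q.

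Shh, the ligand of limb and neural tube patterning, lies on chromosome 5 from 28456840 to 28467101. It had no peak in K49A 1 or 2, against 2 separate peaks in each WT list. One sat inside the low end in all 4 WT lists, at varying positions 1273 to 2474 bp from it, and so outside the 1 kb window. The other was within 456 bp of the high end in WT 1 and WT 3, with folds of 3.54 and 2.87 and widths of 352 and 226 bp. In WT 2 and WT 4 the second peak was at a different place, 1694 to 2581 bp from that end, and was 849 and 861 bp wide. For the peak nearer the high end, the 4 WT libraries thus formed 2 pairs by position. The peaks nearer the low end did not pair in this way: that of WT 1 overlapped those of WT 2 and WT 4, and that of WT 3 overlapped none. By the 1 kb rule Shh was called at an end in WT 1 and WT 3 only.

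Dhh had the least consistent signal of the 3 ligands. Its gene on chromosome 15 (98881615 to 98898562) had no peak in K49A 1, K49A 2, WT 1 or WT 4. WT 2 had 4 peaks, at both ends and inside, with folds of 2.40 to 2.89, and WT 3 had 1 of 905 bp in the gene body. The peak at the finish of Dhh in WT 2 (98881266 to 98881864) also lay within 1 kb of an end of the neighbouring gene Rhebl1.

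Ptch1, the receptor, lies on chromosome 13 from 63508328 to 63573460 and was marked at 2 places near its start in WT sperm. Neither place had a peak in K49A 1 or 2. At the annotated start end, peaks of 347, 1214, 967 and 952 bp were called in WT 1 to 4, with a mean fold of 2.80 ± 0.123 (SD, n = 4). The second place was 7158 to 10208 bp farther in, around the start used by the RefSeq promoter entry at 63565735. There the WT 1 and WT 4 peaks covered that start, with folds of 2.97 and 3.01. In WT 3 a 200 bp peak began 175 bp after it, and in WT 2 the nearest peak began 719 bp after it.

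Smo, the membrane protein that passes the signal on, was the only Hedgehog gene with a called peak in K49A sperm. The gene lies on chromosome 6 from 29735497 to 29761366. Inside it, K49A 1 had a peak from 29747787 to 29748961 and K49A 2 from 29747835 to 29749006. In WT 1 to 4 the peak began at 29747785 or 29747787 and ended between 29748989 and 29749053. The folds were 6.17 and 5.99 in K49A 1 and 2, and 6.02, 7.01, 6.66 and 6.38 in WT 1 to 4. By −log10 q it ranked 54 and 62 in the K49A lists of 700 and 1017 peaks, and 74, 51, 56 and 69 in the WT lists. It was 1175 and 1172 bp wide in K49A 1 and 2 and 1265, 1203, 1269 and 1269 bp wide in WT 1 to 4. Both K49A widths were below all 4 WT widths, as they were at 21.4% of the 234 regions with exactly 1 peak in each of the 6 lists. The median width over all peaks of a list was 301 and 294 bp in K49A 1 and 2, and 404, 557, 542 and 366 bp in WT 1 to 4.

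That peak stood apart from every other peak of the Hedgehog genes. Its −log10 p was 42.3 and 50.1 in K49A 1 and 2 and 38.1 to 70.3 in WT 1 to 4, whereas the next highest value at any of the 9 genes was 10.1, at Gli3 in WT 4. Among all protein-coding genes, 0.407% (89 of 21887) had a peak in the gene body in all 6 lists, and Smo was the 1 member among them. The annotation table used here holds no exons, so whether the peak is exonic or intronic was not determined.

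The start of Smo was called in WT sperm only. No peak lay at either end in K49A 1 or 2. In WT 1 to 4 a peak of 716, 1978, 1743 and 1669 bp began between 94 bp before and 54 bp after the start, with folds of 3.19, 2.80, 3.22 and 3.28. Of the 89 genes with a body peak in all 6 lists, 17, Smo included, had a gene-end peak in all 4 WT lists and in neither K49A list. Among all protein-coding genes that gene-end class held 21.8%, so the start of Smo is not set apart by it.

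**Figure D3:**
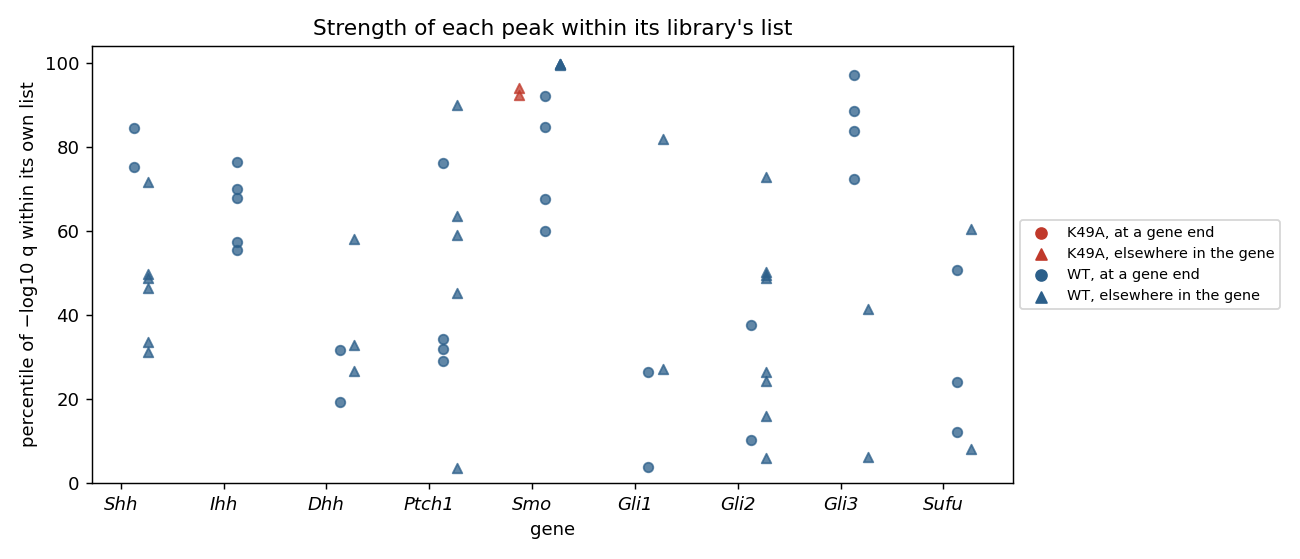
Each point is a called peak of a Hedgehog gene, placed by the percentile of its −log10 q within its own library's list, with circles at gene ends, triangles elsewhere in the gene, K49A in red and WT in blue. The peak inside Smo is at the 92.4 and 94.0 percentiles of the shorter K49A lists and above 99 in WT, and the lists differ too much in length for these ranks to show a change.

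Gli3, which acts mainly as a repressor when the pathway is off, had a gene-end peak in all 4 WT lists. The gene spans 15463723 to 15730026 on chromosome 13. K49A 1 and 2 had no peak. The WT peaks covered 15462900 to 15464771, 15463106 to 15464608, 15463049 to 15464771 and 15462928 to 15464414 in WT 1 to 4, so 15463106 to 15464414 was covered in all 4, including the whole promoter printed above. Their widths were 1872, 1503, 1723 and 1487 bp and the folds 3.29, 3.20, 3.07 and 3.61, a mean of 3.29 ± 0.230 (SD, n = 4). Starts differed by at most 206 bp and ends by at most 357 bp. Over the remainder of this 266.3 kb gene, WT 3 and WT 4 each had 1 further peak, of 308 and 206 bp, and at different places.

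Gli2, the main activator of the pathway, lies on chromosome 1 from 118834061 to 119054405. It had no peak in K49A 1 or 2. Its start end had a peak of 292 bp in WT 2 and of 431 bp in WT 3, with folds of 2.48 and 2.56, and none in WT 1 or WT 4. Inside the gene, overlapping peaks lay 6171 to 6750 bp from the start end in WT 1 and WT 2. A place 18101 to 18754 bp from the finish end was called in WT 2 and WT 3, with folds of 3.15 and 2.95. Each WT list thus had a body peak, but no single body position was called in more than 2 of them.

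Gli1, a target gene of the pathway as well as an activator, had a gene-end peak in 2 WT lists. The gene lies on chromosome 10 from 127329882 to 127341579. No peak was called in K49A 1, K49A 2 or WT 1. Peaks near the high end were 1411, 803 and 238 bp wide in WT 2, WT 3 and WT 4, with folds of 2.60, 2.33 and 2.47. In WT 4 the peak was 1491 bp from that end and so outside the window. The WT 3 peak was at the 3.94 percentile of its list. WT 2 had a further peak inside the gene, from 127332429 to 127332756, with a fold of 3.08, a −log10 p of 5.95 and a place at the 81.9 percentile of its list.

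Sufu, the inhibitor that binds Gli proteins, lies on chromosome 19 from 46396896 to 46488804. K49A 1, K49A 2 and WT 1 had no peak there. In WT 2, WT 3 and WT 4 peaks of 884, 924 and 653 bp lay over the first part of the gene, all within 905 bp of the start, with a mean fold of 2.42 ± 0.0931 (SD, n = 3). Only the WT 2 and WT 3 peaks reached the promoter window.

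Counted over the set, a gene-end peak was present at 0 and 0 of 9 Hedgehog genes in K49A 1 and 2, and at 5, 8, 8 and 5 in WT 1 to 4. The mean was 0 in K49A (n = 2) and 6.50 ± 1.73 in WT (SD, n = 4). Such a peak was present at 0.429 and 0.334% of all protein-coding genes in K49A 1 and 2, so that a count of 0 among 9 genes carries no information about this set. In WT 1 to 4 the share of all genes was 28.8, 43.0, 46.3 and 49.9%, against 55.6, 88.9, 88.9 and 55.6% of the Hedgehog genes. The WT libraries with 8 genes, WT 2 and WT 3, also had the widest peaks, with median widths of 557 and 542 bp against 404 and 366 bp in WT 1 and WT 4. The part of peak width in the count was not tested.

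Ihh, Ptch1, Smo and Gli3, 4 of 9 genes or 44.4%, had a gene-end peak in all 4 WT lists and in neither K49A list. The same held for 21.8% of all protein-coding genes. With 9 genes chosen by name, no test was made of the set against other genes. Body peaks were found in 1 of 9 genes in K49A 1 and in K49A 2, against 6, 9, 9 and 8 genes in WT 1 to 4. Among all genes the shares were 1.08 and 1.45% in K49A 1 and 2, and 31.2, 44.4, 47.6 and 53.5% in WT 1 to 4. Shh, Ihh, Ptch1, Gli2 and Gli3, 5 of 9, had a body peak in all 4 WT and no K49A list. That class held 21.4% of all genes. A longer gene has more room for a peak midpoint, and the shares of all genes were not matched for length. Gli3, Gli2, Sufu and Ptch1 span 266.3, 220.3, 91.9 and 65.1 kb, and the body peaks of Gli2 had no position common to all WT lists. The part of gene length in the body counts was not tested. The body and gene-end counts share peaks. All body peaks of Ihh, and those of Gli3 in WT 1 and WT 2, were also gene-end peaks. In WT 4 the start peak of Gli3 had its midpoint outside the gene, and the 206 bp peak farther in was counted.

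The lists do not stop at the same strength. The lowest −log10 p was 4.73 and 4.55 in K49A 1 and 2 and 3.32 to 3.75 in WT, so a peak as weak as some of those listed in WT could not appear in a K49A list. Of the 28 WT peaks at ends of Hedgehog genes, 9 were below 4.55. They belonged to 5 genes, Dhh, Ptch1, Gli1, Gli2 and Sufu, and were in WT 2, WT 3 and WT 4. With a −log10 p of at least 5 required in every list, gene-end peaks were left at 0 and 0 Hedgehog genes in K49A 1 and 2, against 4, 2, 4 and 3 in WT 1 to 4. The shares of all genes at that level were 0.388 and 0.311% in K49A and 18.0, 21.7, 26.2 and 31.6% in WT. At 22.2 and 33.3% of Hedgehog genes, WT 2 and WT 4 were then near the share of all genes, as WT 4 already was in the full lists. Smo and Gli3 were the 2 genes still called in all 4 WT and no K49A list, a class of 6.93% of all genes.

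**Figure D4:**
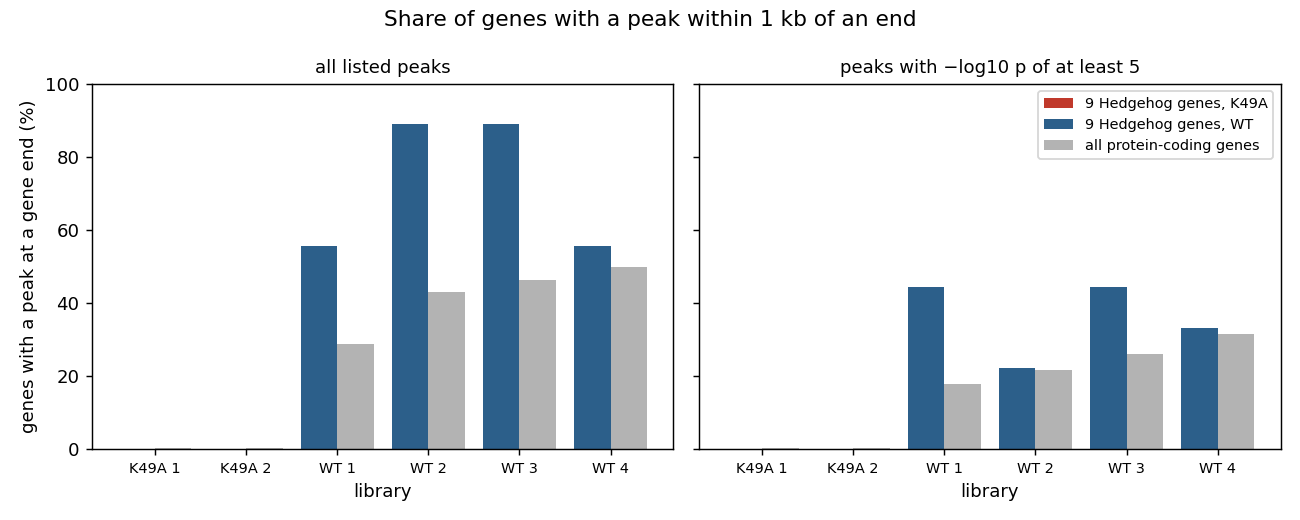
Coloured bars give the percentage of the 9 Hedgehog genes with a peak within 1 kb of an end in each library (K49A at 0, WT in blue) and grey bars that of all protein-coding genes, for all listed peaks (left) and after requiring a −log10 p of 5 or more (right). On the left the Hedgehog genes are above all genes in WT 1, WT 2 and WT 3 and close to them in WT 4 (55.6 against 49.9%). On the right they are close to all genes in WT 2 and WT 4.

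The length covered by peaks was taken over each gene with 1 kb on either side. In 6 of the 9 genes, Shh, Ihh, Ptch1, Smo, Gli2 and Gli3, all 4 WT values exceeded both K49A values (permutation test, exact and two-sided, p = 0.133 each). The two-sided p is 2 times the smaller tail, for which 0.133 is the smallest value that 4 and 2 libraries allow. Taken on the absolute difference the smallest would be 0.0667, so 0.05 could not be reached by either rule, and the adjusted p was 0.457 for each of the 6 (Benjamini-Hochberg over 21887 genes, permutation test). The same separation, lower in K49A, was found for 29.2% of all genes, which were not matched for gene length. With a −log10 q of at least 2 in every list it held for 4 of the 9, Shh, Ihh, Smo and Gli3, and for 11.5% of all genes. A −log10 p minimum of 5 left 2 of the 9, Smo and Gli3, and 9.75% of all genes. Covered length in Ihh was 0 and 0 bp in K49A 1 and 2, and 923, 3352, 1616 and 1318 bp in WT 1 to 4. At Gli3 it was 0 and 0 bp in K49A and 1872, 1503, 2031 and 1693 bp in WT. The WT spread was thus smallest at Gli3, with a mean of 1775 ± 228 bp (SD, n = 4), and largest at Ihh, with 1802 ± 1071 bp (SD, n = 4).

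In Ptch1 the covered length was 0 and 0 bp in K49A 1 and 2, against 950, 2224, 2420 and 2019 bp in WT 1 to 4. For Smo it was 1175 and 1172 bp in K49A, all from the inner peak, and 1981, 3181, 3012 and 2938 bp in WT. Shh had 0 and 0 bp in K49A against 892, 1243, 426 and 1157 bp in WT, and Gli2 had 0 and 0 bp against 580, 1116, 1724 and 975 bp. The groups touched at 0 bp in the other 3 genes. WT means there were 623 ± 771 bp for Dhh, 695 ± 773 bp for Gli1 and 793 ± 674 bp for Sufu (SD, n = 4 each), with permutation p of 0.8, 0.4 and 0.4 (exact, two-sided). Per length, WT peaks covered 21.6% of the Ihh span, the highest of the 9, and 0.494% of the Gli2 span, the lowest, where the median over all genes was 0.774%.

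**Figure D5:**
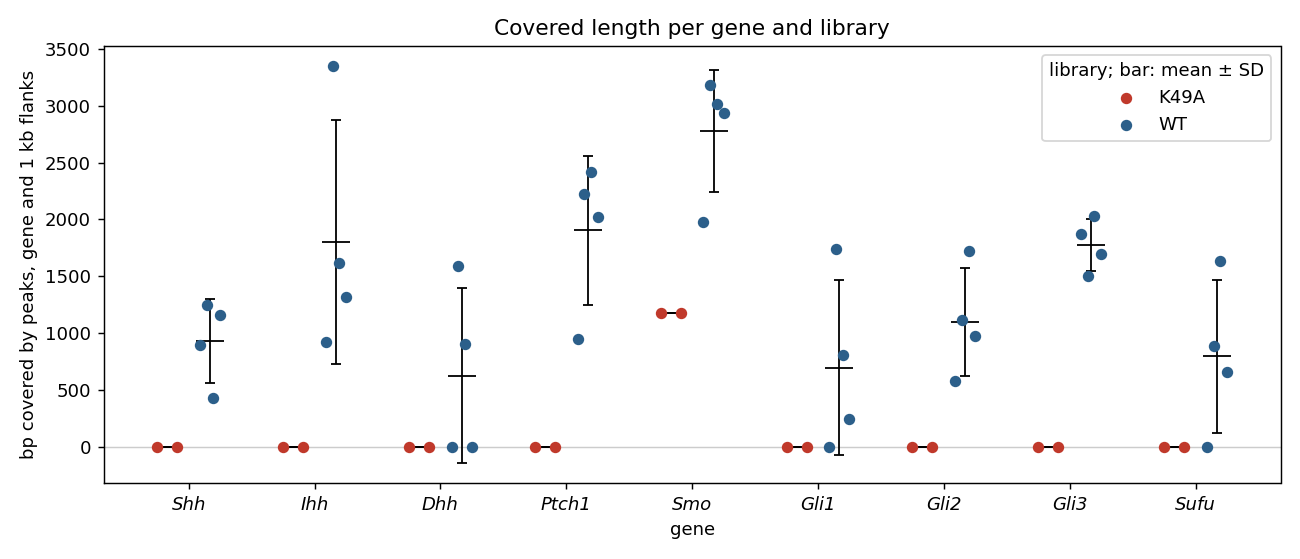
Points give the bp covered by peaks over each gene and its 1 kb flanks in each library, K49A (red) left of WT (blue), with bars for mean ± SD. K49A is at 0 bp at each gene except Smo (1175 and 1172 bp), and WT reaches 0 bp at Dhh, Gli1 and Sufu.

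Gene-end peaks were at the start rather than the finish. For the 7 genes with a known strand, a peak lay within 1 kb of the start end in 0 and 0 genes in K49A 1 and 2 and in 4, 7, 6 and 5 genes in WT 1 to 4. At the finish end the count was 0 in every library except WT 2, where it was 1, the Dhh peak near Rhebl1. Over all genes with a promoter entry the start end had a peak in 0.314 and 0.200% in K49A and 27.6, 40.8, 44.1 and 47.2% in WT. For the finish end the values were 0.131 and 0.126% in K49A and 1.96, 4.01, 4.57 and 5.51% in WT. Peaks at the ends of Hedgehog genes had median widths of 716, 1214, 946 and 940 bp in WT 1 to 4, against 490, 687, 686 and 588 bp for all gene-end peaks of the same lists. Their median folds of 3.19, 2.60, 2.72 and 2.61 were below those of all gene-end peaks, at 3.25, 2.96, 2.99 and 2.97. In each WT list the median Hedgehog peak at a gene end was thus wider, and had a lower fold, than the median of all such peaks. These medians rest on 5, 9, 8 and 6 Hedgehog peaks in WT 1 to 4, and the folds in WT 1 were close. By −log10 q the median Hedgehog peak was at the 72.4, 31.6, 65.4 and 68.9 percentile of its whole list.

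Other genes of the pathway were also called in WT lists. Of 34 further genes, 0 and 0 had a gene-end peak in K49A 1 and 2, against 16, 23, 26 and 27 in WT 1 to 4 (47.1, 67.6, 76.5 and 79.4%). The shares of all genes were 0.429 and 0.334% in K49A 1 and 2, and 28.8, 43.0, 46.3 and 49.9% in WT 1 to 4. In all, 11 of 34 (32.4%) were called in all 4 WT and no K49A list, beside 21.8% of all genes. Among 5 coreceptors and decoys, Boc and Gas1, which help present ligand to Ptch1, were in this class, with folds of 2.88 ± 0.325 and 2.59 ± 0.0522 (SD, n = 4 WT each). Among 6 genes of ligand release and processing it held Scube2, which helps release lipid-bearing ligand (3.46 ± 0.216), while Disp2 had no gene-end peak. Of 15 genes of the cilium and signal transduction, 4 were in the class. The leading ones were Gpr161, a ciliary receptor that keeps the pathway off, with 3.40 ± 0.410, and Ift88, a ciliary transport protein, with 3.42 ± 0.500 (SD, n = 4 WT each).

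The ciliary kinesin genes Kif7 and Kif3a had no gene-end peak in any list, though both had a body peak in 3 WT lists. Of 7 genes for Gli kinases and ubiquitin ligase parts, 4 were in the class, led by the ligase scaffold Cul3 (4.28 ± 0.664) and the protein kinase A subunit Prkaca (3.63 ± 0.304; fold, SD, n = 4 WT each). Hhat, the enzyme that attaches a fatty acid to Hedgehog ligands, was the single gene of the 34 with any K49A peak. It was a body peak of 486 bp in K49A 2 with a fold of 2.86 and a −log10 p of 5.07, and in WT 4 a peak of 700 bp with a fold of 3.16 overlapped its place. Among all genes, 1.08 and 1.45% had a body peak in K49A 1 and 2. Lmbr1, whose intron holds the limb enhancer of Shh, had a peak at its start end in WT 2, WT 3 and WT 4 and none in K49A 1, K49A 2 or WT 1.

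Gli3 had the largest mean covered length at gene ends, with 0 and 0 bp in K49A 1 and 2 and 1824, 1503, 1675 and 1487 bp in WT 1 to 4. The 5 protein-coding genes with the most similar values over the 6 libraries, by Euclidean distance of log2(bp + 1), were Plekhh2 (0.157), Hmga2 (0.232), Cldn23 (0.268), Bmper (0.303) and Tmem158 (0.365).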

How the data were processed

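The series holds 6 MNase-seq libraries of mouse sperm, grouped by the genotype and numbered as in the sample titles. The authors deposited 1 broad peak list per library. FastQC, BWA, Picard, SAMtools and MACS2, and the build mm10, are named per the submitters' processing notes. The sources used here name no versions, settings or input control. The deposited files give, per peak, a fold enrichment (ratio), a −log10 p, a −log10 q and a score. The score was not used. All of these are the authors' values, set against each library's own background, so a fold can differ through its background.

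Peaks were placed on the RefSeq gene table for GRCm38.p6 (21887 protein-coding genes on chromosomes 1 to 19, X and Y). Strand and promoter sequence came from the RefSeq promoter table (17492 of these genes, first entry of each). Covered lengths were tested by exact permutation (two-sided, 2 times the smaller tail, 15 arrangements of 4 and 2) on all genes. Overlap, covered length and the test were checked on simulated data. Python 3.11.15, numpy 2.4.6, pandas 2.3.3, scipy 1.17.1 and matplotlib 3.10.9 were used. Members and lists were chosen with earlier results of these data known. All members are named. Other pathway genes are named if they had a K49A peak, if they had no gene-end peak, or if they were among the leading genes of their role by mean percentile with a peak in all 4 WT lists. The −log10 p minimum of 5 was chosen after seeing the data.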

Additional observations from a re-analysis of the deposited data

Results flagged for a closer look

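In 19 sets of 4 WT values of Hedgehog genes (covered lengths, and widths and folds of peaks called in all 4), 1 had a library far from the others. The peak inside Smo was 1203 bp wide in WT 2, against 1265 to 1269 bp in the other WT libraries. The gap to the nearest library was 0.939 of the whole range, past Dixon's 95% limit for 4 values. Chance flags about 1 such set in 20.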

How the results depend on the processing

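No result turned to the opposite direction among 158 values recomputed under other settings, but sizes changed. For many of these values a reversal was not possible. K49A 1 and 2 had no gene-end peak at the 9 genes or the 34 others, and 0 bp at each gene except Smo. Dropping peaks or libraries could not turn such differences positive, and a class count cannot fall below 0. The lack of reversals is therefore no support for the results. The K49A minus WT difference in the mean number of Hedgehog genes was -6.50 at gene ends and -7.00 in gene bodies. It was -4.00 and -5.00 with a −log10 q of at least 2, and -3.25 and -3.50 with a −log10 p of at least 5. With 700 peaks per list it was 0 at both places, and 0 genes were called in all WT but no K49A lists, against 4 with full lists and 2 with a −log10 p of at least 5. Non-overlapping covered lengths were found in 6 genes, in 4 at the q minimum and in 2 at the p minimum. For the 34 other pathway genes the difference was -23.0, then -15.8 at the q minimum and -13.2 at the p minimum. Windows of 0.5 or 2 kb, and the midpoint rule, gave 3, 5 and 3 genes in the class. The share of all genes was not taken at these settings or with 700 peaks per list. Nor was it taken for the counts below, with 1 library left out or in a replicate block. None of these counts can therefore set the Hedgehog genes apart from other genes. Leaving out 1 library gave -6.00 to -7.00 at gene ends, -6.67 to -7.67 in bodies, -21.7 to -25.3 for the other genes, 4 or 5 genes in the class and 6 to 8 genes without overlap. Single-gene differences in covered length stayed below 0 in 97 of 99 settings and were 0 in 2, Dhh at the p minimum and in the file-name block. At every gene except Smo they could not exceed 0, because both K49A libraries had 0 bp there. Fewer peaks remain under a stricter minimum by construction. The titles share the numbers 1 and 2 (deviations of same-numbered libraries correlated at 0.0863 and 0.0351 over genes), but alike file names would pair K49A 1 with WT 1 and K49A 2 with WT 4. Which pairing holds, if either, is not known. With the title numbers as a replicate block the differences were -6.50 at gene ends and -6.50 in bodies, with 4 and 6 genes. With the file-name pairs, added after seeing the data, they were -5.00 and -6.00, again with 4 and 6 genes.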
